A study of Mus musculus with 2 samples.

Results

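The AP-1 transcription factor genes measured here were *Fos*, *Fosb*, *Fosl1*, *Fosl2*, *Jun*, *Junb*, *Jund* and *Atf3*, found by gene symbol. The choice was made with earlier results of these data known. All 8 had 1 row each among the 19465 genes of the probe panel, and all 8 had at least 1 UMI (a counted molecule) in each section. The data are spatial transcriptomes of back skin of 8-week-old mice that had been depilated 1 day before treatment and had then received 62.5 mg of 5% imiquimod (IMQ) cream each day for 7 days, a model in which the skin thickens and inflames as in psoriasis. Both mice carried floxed alleles of *S1pr2*, which encodes a receptor for the lipid sphingosine 1-phosphate. One was *S1pr2* f/f, and the other was *S1pr2* f/f K14-Cre, in which Cre recombinase is driven by the keratin 14 promoter of basal keratinocytes. There was 1 formalin-fixed section of 10 µm per genotype, hybridised with probes and read on an 11 mm array of spots (Visium CytAssist). Skin without IMQ was not analysed here. With 1 library per genotype, genotype, animal, section and library cannot be told apart and no test between them was possible. The intervals given below are 95% intervals of counting error only.

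AP-1 is a family of dimers built on basic leucine zippers. Jun proteins pair with each other, with Fos proteins or with ATF proteins, and the dimers bind AP-1 sites or cAMP response elements. *Fos*, *Fosb*, *Jun* and *Junb* are immediate early genes, transcribed within minutes after growth factors, cytokines or stress act through MAP kinases, whereas *Jund* is transcribed more steadily and *Fosl1* and *Fosl2* follow later. In epidermis AP-1 dimers control genes of keratinocyte differentiation and of inflammation, and loss of *Jun* and *Junb* together from mouse epidermis gives a disease that resembles psoriasis.

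A spot covers a small region and can hold several cells of different types. Levels are given as CPM, the UMIs of a gene per 1000000 UMIs of the region. Spots were placed in a skin layer by the marker list with the highest score, and are named for those markers. The *S1pr2* f/f section held 1282 spots and 5315351 UMIs, with a median of 3542.5 UMIs per spot, and the *S1pr2* f/f K14-Cre section held 981 spots and 2845826 UMIs, with a median of 2319. Keratinocyte-marker spots numbered 314 and 230, and hair follicle-marker spots, at 25 and 16, were left out of the layer descriptions. The median depth of keratinocyte-marker spots was 4737.5 UMIs in *S1pr2* f/f against 2318 in *S1pr2* f/f K14-Cre. Olfactory, vomeronasal and taste receptor genes, which skin should hardly transcribe, gave the background, and a receptor gene averaged 1.61 CPM in the keratinocyte-marker spots of *S1pr2* f/f against 8.41 in those of *S1pr2* f/f K14-Cre. *S1pr2* itself had 32 UMIs in the keratinocyte-marker spots of *S1pr2* f/f (18.0 CPM) and 11 in those of *S1pr2* f/f K14-Cre (15.7 CPM), a log2 ratio of -0.19 (-1.33 to 0.83). Those 11 UMIs were fewer than the 14 at the receptor gene percentile used below for *Fosb*, and cannot be told from background. With the mean receptor gene level taken off, the log2 ratio was -1.16. The ratio therefore shows neither an unchanged nor a lower *S1pr2* level. The positions of the *S1pr2* probes are also not given in the sources used here, so its level does not check the deletion. Marker lists differed as well. Among keratinocyte-marker spots all 8 differentiated keratinocyte markers were at least 2-fold lower in *S1pr2* f/f K14-Cre (summed level 16130 against 51286 CPM). The summed level of the 8 skeletal muscle markers was 2599 against 1092, and that of the 7 neutrophil markers 7574 against 25118. Only 3 of those 7 had at least 100 UMIs, with 2 at least 2-fold lower. The list includes *S100a8* and *S100a9*, and its sum does not count neutrophils. Keratinocyte markers also differed in deeper layers. In muscle-marker spots the 7 basal markers summed to 989 CPM in *S1pr2* f/f K14-Cre against 7480 in *S1pr2* f/f, and the 8 differentiated markers to 738 against 6989. In collagen-marker spots these sums were 2819 against 11582 and 1209 against 10664. The part of all these values in the results below was not tested.

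Division by all UMIs left the median log2 ratio of 4535 genes in keratinocyte-marker spots at -0.03, but TMM and DESeq2 factors lowered every ratio of *S1pr2* f/f K14-Cre over *S1pr2* f/f there by 0.73 and 0.80 on the log2 scale. Of 4535 genes with at least 100 UMIs in these spots, 9.88% were at least 2-fold higher and 12.7% at least 2-fold lower in *S1pr2* f/f K14-Cre. Of the 5 AP-1 genes with that depth, 1 was higher by that measure (*Fos*, which does not stay so with TMM factors) and 1 lower (*Jund*). *Fos* had 66 UMIs in *S1pr2* f/f and 53 in *S1pr2* f/f K14-Cre. At its *S1pr2* f/f level in both sections it would not have reached that depth, so its place in this count is no support. The median log2 ratio of those 5 was 0.51.

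The starts of 7 of the 8 genes were found among RefSeq promoters of build GRCm38.p6, to which all coordinates below refer. Fos, Fosb, Junb and Atf3 are shown because the 110 bases before their start hold the core of a cAMP response element (TGACG, either strand, in capitals), and Jund because it does not and the results in keratinocyte-marker spots turn on it. Each sequence runs 5′ to 3′ on the strand of its gene and ends at the base before the start that the promoter table uses, which for Fosb lies inside the gene span given below and for the others at its edge.
Fos (chr12:85473780-85473889, plus strand): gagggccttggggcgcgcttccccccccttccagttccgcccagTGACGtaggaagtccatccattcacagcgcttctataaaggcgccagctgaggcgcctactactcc
Fosb (chr7:19310046-19310155, minus strand): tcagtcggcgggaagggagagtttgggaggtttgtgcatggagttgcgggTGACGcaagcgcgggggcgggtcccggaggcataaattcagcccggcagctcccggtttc
Junb (chr8:84978749-84978858, minus strand): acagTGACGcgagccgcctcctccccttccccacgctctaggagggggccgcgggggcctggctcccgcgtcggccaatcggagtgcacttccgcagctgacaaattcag
Atf3 (chr1:191183334-191183443, minus strand): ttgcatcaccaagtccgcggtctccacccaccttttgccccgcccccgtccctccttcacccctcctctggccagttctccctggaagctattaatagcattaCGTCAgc
Jund (chr8:70697629-70697738, plus strand): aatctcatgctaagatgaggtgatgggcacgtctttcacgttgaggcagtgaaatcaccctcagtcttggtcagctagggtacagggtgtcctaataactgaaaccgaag

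The capitals begin 66 bases before the start in *Fos*, 60 in *Fosb*, 106 in *Junb* and 7 in *Atf3*. TGACG lay within 250 bases before the start in 19.8% of 27025 promoters. Over that same window *Fos*, *Fosb*, *Junb* and *Atf3* held it, and *Fosl2*, *Jun* and *Jund* did not. Neither the AP-1 site TGANTCA, present in 7.82% of promoters, nor the full element TGACGTCA, present in 1.77%, occurred in the 250 bases of any of the 7. *Fos* also had TATAA 33 bases before its start, a motif of 25.8% of promoters, and its TGACG occurred once more at 129 bases. The GC content of the 250 bases was 47.6% in *Jund* and between 58.4% and 68.8% in the other 6, against a median of 52.4% over all promoters. These matches describe letters and not binding.

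*Jund* (chr8:70697739-70700616), the Jun protein gene with the steadiest transcription, had similar levels in the 5 layers described for *S1pr2* f/f and was low in the keratinocyte-marker spots of *S1pr2* f/f K14-Cre. Its level in *S1pr2* f/f was 528 CPM in keratinocyte-marker spots (940 UMIs), 488 in sebaceous-marker spots, 445 in collagen-marker spots, 496 in adipocyte-marker spots and 499 in muscle-marker spots. The levels of *S1pr2* f/f K14-Cre in the same order were 174 (122 UMIs), 246, 359, 449 and 358. These *S1pr2* f/f layers thus lay close together, and among the 5 only keratinocyte-marker and collagen-marker spots had counting intervals that did not overlap. For *S1pr2* f/f K14-Cre the keratinocyte-marker spots were the lowest and the sebaceous-marker spots, whose interval overlapped theirs, the next lowest. *Jund* was at 0.330 of the *S1pr2* f/f level in keratinocyte-marker spots, a log2 ratio of -1.60 (-1.88 to -1.33), and 4.01% of the 4535 genes had a lower ratio. A lower level per spot can come from fewer cells of a type or from less RNA per cell, which cannot be told apart here. The ratio was -0.99 (-1.36 to -0.63) in sebaceous-marker spots, -0.31 (-0.57 to -0.05) in collagen-marker spots, -0.48 (-0.69 to -0.27) in muscle-marker spots and -0.14 (-0.44 to 0.15) in adipocyte-marker spots. It was below 0 in keratinocyte-marker spots under every alternative tried, between -2.40 and -1.34. The difference between the section ratios of keratinocyte-marker and muscle-marker spots was -1.12 (-1.46 to -0.78), and with TMM factors the ratios stood at -2.33 and -0.30.

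The difference was present at matched depth and in each stretch of the sections. After each keratinocyte-marker spot was thinned to 1000 UMIs, which kept 287 of 314 spots of *S1pr2* f/f and 210 of 230 of *S1pr2* f/f K14-Cre, 42.2% (36.4 to 48.1) of spots in *S1pr2* f/f and 15.7% (11.1 to 21.4) in *S1pr2* f/f K14-Cre held a *Jund* UMI. Before thinning the shares were 78.0% and 25.7%. When each section was cut along its length into 4 segments of equal numbers of spots, the keratinocyte-marker spots of *S1pr2* f/f had *Jund* levels of 531, 600, 618 and 459 CPM, and those of *S1pr2* f/f K14-Cre had 149, 63.2, 117 and 266. No segment of one section overlapped a segment of the other. Without the 3 richest spots of each section the ratio was -1.90 (-2.22 to -1.59).

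**Figure D1:**
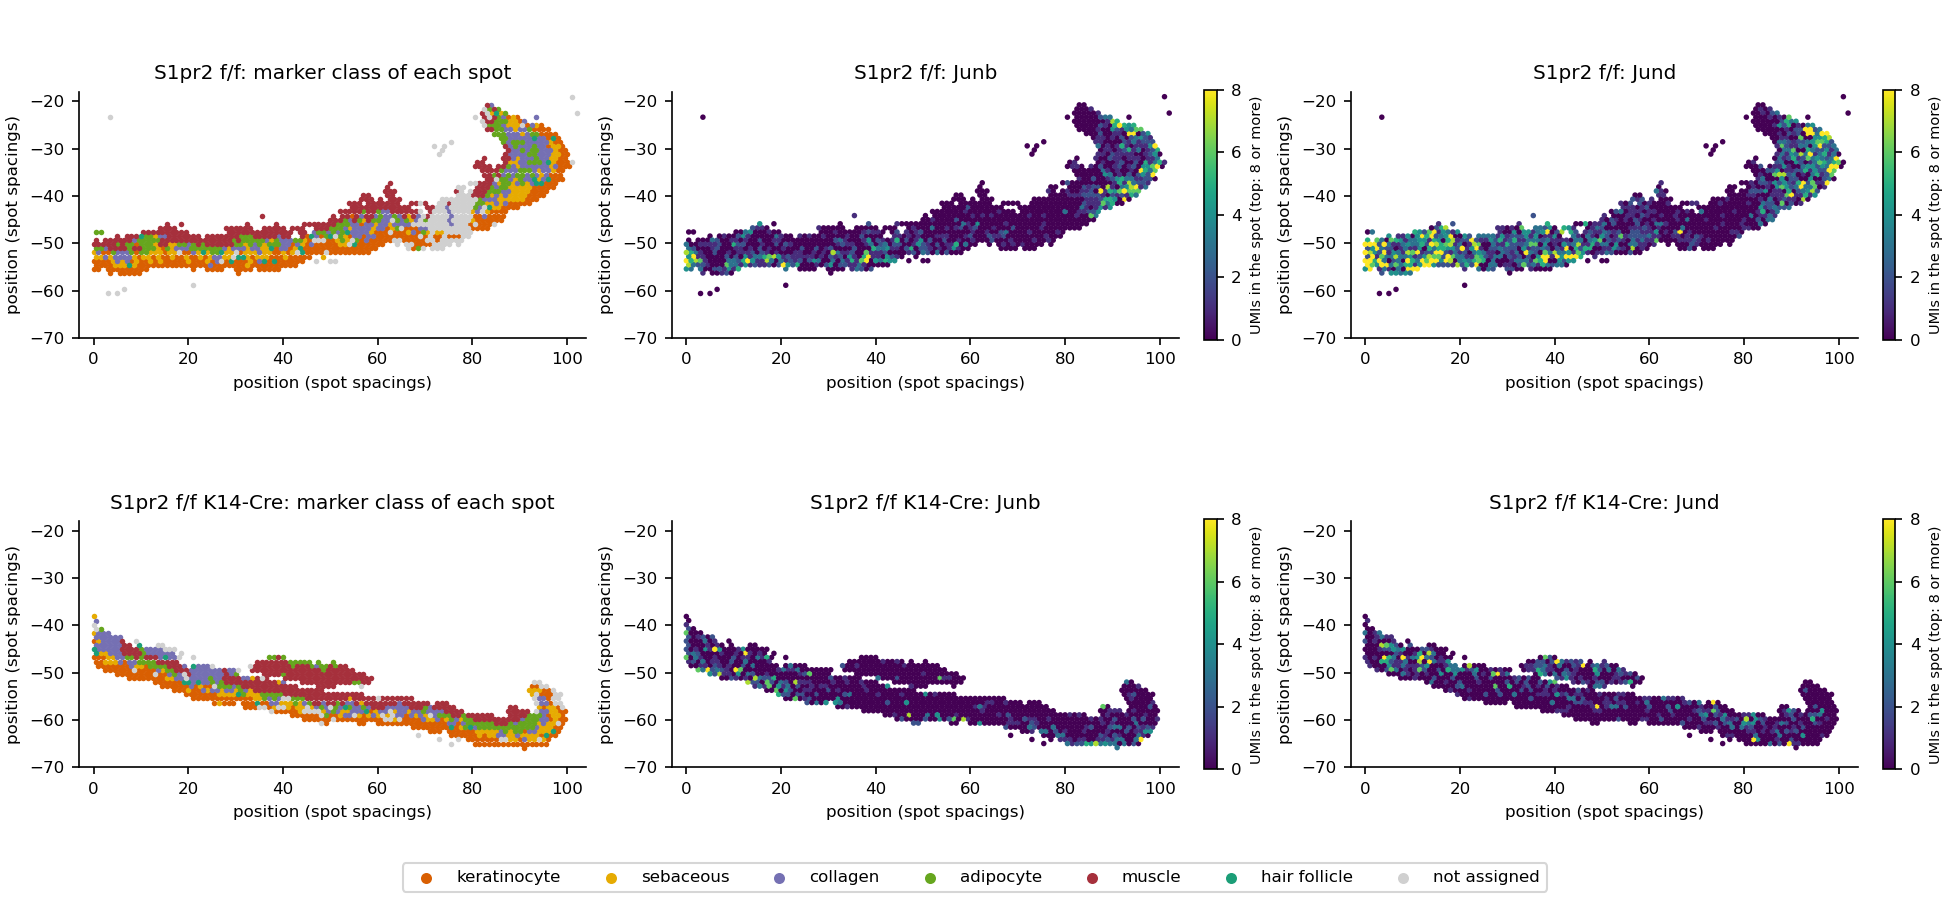
Each dot is a spot at its place on the array, drawn for the *S1pr2* f/f and the *S1pr2* f/f K14-Cre section. Colour gives the marker-named layer or the UMIs of *Jund* and *Junb* in that spot, capped at the top of the scale and not corrected for depth. *Jund* is spread over *S1pr2* f/f, where its level in the 5 layers described was between 445 and 528 CPM, and is sparse in the keratinocyte-marker spots of *S1pr2* f/f K14-Cre, where it was 174; a few isolated spots away from the sections are not drawn.

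*Jund* levels were also sorted by distance. A step is one spot to its neighbour, counted from the nearest keratinocyte-marker spot. The spots at 0 steps are the keratinocyte-marker spots themselves, so this is no second observation of their level. The *Jund* level of *S1pr2* f/f was 528 CPM at 0 steps, 494 at 1 step, 437 at 2 steps, 454 at 3 steps, 547 at 4 steps and 420 at 5 steps. That of *S1pr2* f/f K14-Cre was 174 at 0 steps, 193 at 1 step, 417 at 2 steps, 338 at 3 steps, 441 at 4 steps and 327 at 5 steps. The level of *S1pr2* f/f K14-Cre was thus lowest at 0 and 1 steps. At 3 steps it was again below *S1pr2* f/f, with 338 (282 to 400.7) against 454 (400.8 to 512). The mean receptor gene background of *S1pr2* f/f K14-Cre moved the other way, from 8.41 CPM at 0 steps and 9.44 at 1 step to 6.16 at 2 steps and 3.84 at 4 steps. The background of *S1pr2* f/f was between 1.61 and 2.80 over 0 to 5 steps. Its part in the *Jund* gradient was not tested.

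**Figure D2:**
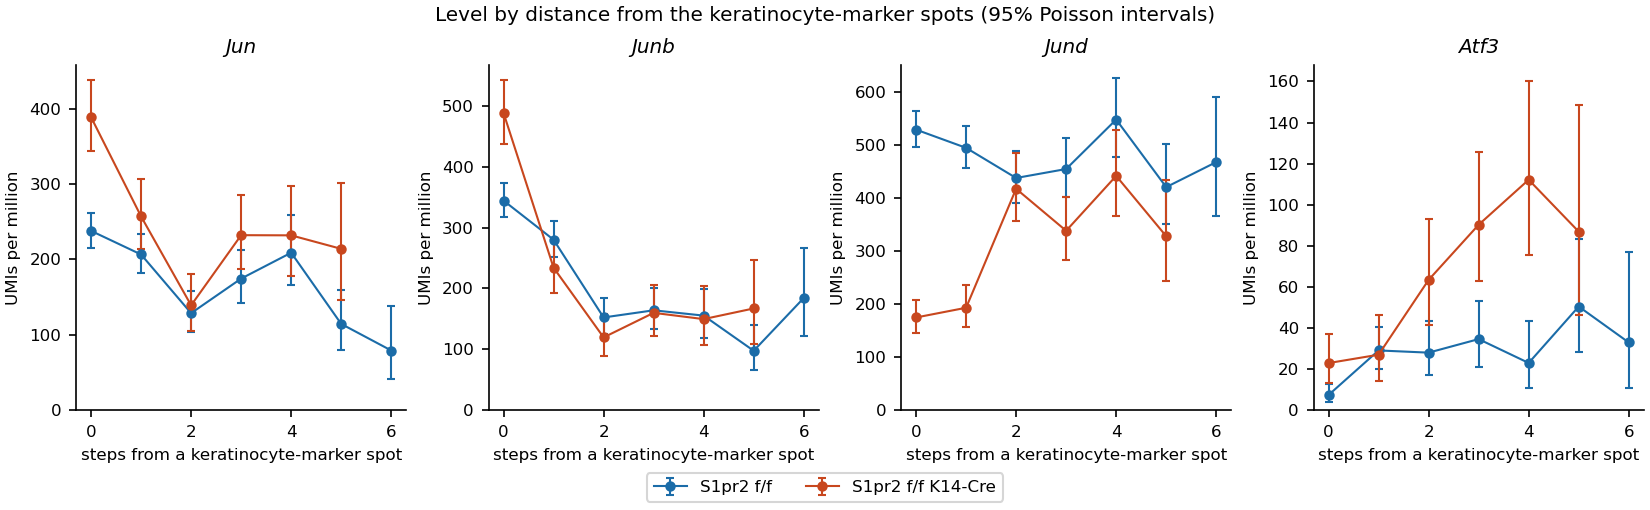
Level in CPM (vertical) against steps from the nearest keratinocyte-marker spot (horizontal) in each section, with bars for 95% Poisson intervals. *Jund* of *S1pr2* f/f K14-Cre is low at 0 and 1 steps (174 and 193) and reaches 417 at 2 steps, whereas *S1pr2* f/f starts at 528.

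*Junb* (chr8:84976909-84978748), an immediate early Jun gene, decreased from keratinocyte-marker to muscle-marker spots in both sections. Its level in *S1pr2* f/f was 344 CPM in keratinocyte-marker spots (613 UMIs), 254 in sebaceous-marker spots, 251 in collagen-marker spots, 182 in adipocyte-marker spots and 84.3 in muscle-marker spots (80 UMIs). The levels of *S1pr2* f/f K14-Cre were 489 (342 UMIs), 203, 209, 114 and 86.9 (74 UMIs). Both sections thus ran from the keratinocyte-marker spots at the top to the muscle-marker spots at the bottom, with sebaceous-marker and collagen-marker spots within each other's counting intervals. Over all other assigned spots, *Junb* in keratinocyte-marker spots had a log2 ratio of 0.83 (0.67 to 1.00) in *S1pr2* f/f and 1.75 (1.52 to 1.98) in *S1pr2* f/f K14-Cre, and stayed above 0 under all alternatives, between 0.72 and 1.29 and between 1.51 and 1.98. Among those other spots, the collagen-marker and muscle-marker spots held higher keratinocyte marker levels in *S1pr2* f/f, as given above. The part of this in the gap between the 2 ratios was not tested. With DESeq2 factors the *Junb* ratios were 1.29 in *S1pr2* f/f and 1.51 in *S1pr2* f/f K14-Cre, a much smaller gap. Its log2 ratio of *S1pr2* f/f K14-Cre over *S1pr2* f/f in keratinocyte-marker spots was 0.50 (0.31 to 0.70) with division by all UMIs but -0.23 with TMM factors and -0.29 with DESeq2 factors, so that no direction holds between the sections. In muscle-marker spots the ratio was 0.04 (-0.43 to 0.52).

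*Jun* (chr4:95049036-95052222), the gene of c-Jun, was likewise highest in keratinocyte-marker spots, with a shallower pattern. Its level in *S1pr2* f/f was 238 CPM there (423 UMIs), 185 in sebaceous-marker, 166 in collagen-marker, 169 in adipocyte-marker and 152 in muscle-marker spots. For *S1pr2* f/f K14-Cre it was 389 (272 UMIs), 253, 250, 154 and 190. Apart from the keratinocyte-marker spots, the counting intervals of these *S1pr2* f/f layers overlapped. Between the sections, the log2 ratio in keratinocyte-marker spots was 0.71 (0.48 to 0.93) with division by all UMIs and turned to -0.02 with TMM factors and -0.09 with DESeq2 factors. In collagen-marker spots it was 0.60 (0.24 to 0.96) and in muscle-marker spots 0.33 (-0.01 to 0.66), but neither direction held under all alternatives, as the ratio turned to -0.35 in collagen-marker spots with Leiden clusters at resolution 0.5 and to -0.79 in muscle-marker spots among those with 2000 to 5000 UMIs. The 8 skeletal muscle markers summed to 33271 CPM in collagen-marker spots of *S1pr2* f/f K14-Cre against 6123 in *S1pr2* f/f, with all 8 at least 2-fold higher, and the 4 measured blood markers to 272 against 1973, and their part in the collagen-marker ratios of *Jun* and *Fos* was not tested. Where keratinocyte-marker spots were parted by whether differentiated or basal markers scored higher, *Jun* was higher in the more differentiated spots of both sections, by a log2 ratio of 0.47 (0.16 to 0.79) in *S1pr2* f/f and 0.47 (0.10 to 0.83) in *S1pr2* f/f K14-Cre. *Junb* had 0.22 (-0.03 to 0.48) and 0.22 (-0.10 to 0.54), and *Jund* 0.18 (-0.02 to 0.39) and 0.13 (-0.41 to 0.67). The intervals of *Junb* and *Jund* include 0, so neither differed between these spots beyond counting error. The split was partial. In both sections *Krt1* and *Krt10* were higher and *Krt5* lower in the more differentiated spots, but the basal marker *Krt14* was higher there too. Its log2 ratio was 0.29 (0.26 to 0.32) in *S1pr2* f/f and 0.26 (0.21 to 0.30) in *S1pr2* f/f K14-Cre.

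A share of the AP-1 UMIs within a region does not depend on how libraries are scaled, although it depends on the probes of each gene and is no share of transcripts. In keratinocyte-marker spots *Jund* held 41.8% (39.7 to 43.8) of 2250 AP-1 UMIs in *S1pr2* f/f and 13.3% (11.2 to 15.7) of 914 in *S1pr2* f/f K14-Cre. *Junb* held 27.2% (25.4 to 29.1) and 37.4% (34.3 to 40.6). *Jun* held 18.8% (17.2 to 20.5) and 29.8% (26.8 to 32.8). *Jund* was thus the leading AP-1 gene by UMIs in the keratinocyte-marker spots of *S1pr2* f/f and *Junb* in those of *S1pr2* f/f K14-Cre. *Fos* held 2.93% and 5.80%, and *Fosl2* 7.73% and 7.77%. These shares are parts of a whole, so the smaller *Jund* share by itself enlarges those of the other genes. The larger shares of *Junb* and *Jun* therefore do not show a gain of these genes. In muscle-marker spots *Jund* remained the leading gene of both sections, with 57.5% (54.0 to 60.9) of 825 UMIs and 41.7% (38.1 to 45.4) of 731. The UMIs of all 8 genes together hardly differed between the sections, at 1264 and 1306 CPM in keratinocyte-marker spots, a log2 ratio of 0.05 (-0.07 to 0.16), although TMM factors moved this to -0.69.

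**Figure D3:**
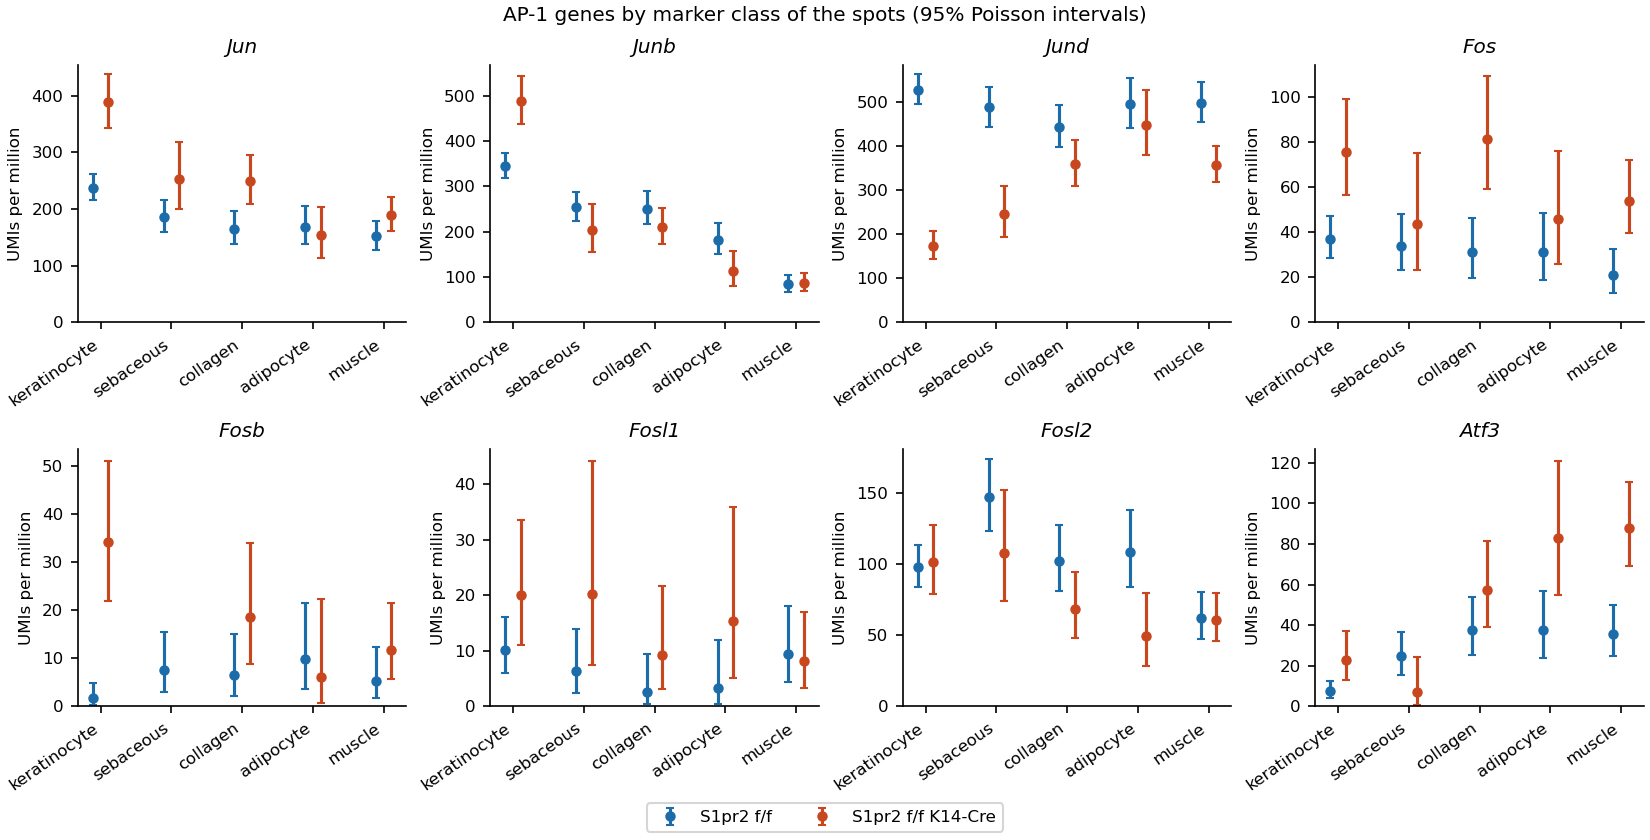
Level of each AP-1 gene in CPM, on a linear axis, for 5 marker-named layers of the 2 sections, with bars for 95% Poisson intervals. *Junb* descends from keratinocyte-marker to muscle-marker spots in both sections (344 to 84.3 and 489 to 86.9), and *Jund* is level in *S1pr2* f/f but lowest in the keratinocyte-marker spots of *S1pr2* f/f K14-Cre.

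*Fos* (chr12:85473890-85477274), whose product is the classical partner of Jun, had few UMIs and no clear layer pattern in *S1pr2* f/f. Its level there was 37.1 CPM in keratinocyte-marker spots (66 UMIs), 34.1 in sebaceous-marker, 31.0 in collagen-marker, 31.2 in adipocyte-marker and 21.1 in muscle-marker spots (20 UMIs). In *S1pr2* f/f K14-Cre it was 75.7 (53 UMIs), 43.9 (13 UMIs), 81.5 (44 UMIs), 46.1 (15 UMIs) and 54.0 (46 UMIs). Each layer of *S1pr2* f/f K14-Cre was above the same layer of *S1pr2* f/f after division by all UMIs, although sebaceous-marker spots turned to a log2 ratio of -0.060 with TMM factors, -0.077 with DESeq2 factors and -0.13 without the 3 richest spots, and adipocyte-marker spots to -0.20 without the 3 richest spots. The log2 ratio was 1.03 (0.48 to 1.57) in keratinocyte-marker, 1.39 (0.64 to 2.17) in collagen-marker and 1.36 (0.57 to 2.19) in muscle-marker spots, where the intervals lay above 0, and 0.36 (-0.69 to 1.33) and 0.56 (-0.52 to 1.62) in sebaceous-marker and adipocyte-marker spots, where they did not. Among spots with 2000 to 5000 UMIs the ratio was 0.96 (-0.07 to 2.04) in collagen-marker and 1.01 (-0.34 to 2.61) in muscle-marker spots, and with Leiden clusters at resolution 1 it was 0.28 (-0.63 to 1.16) in collagen-marker spots. In keratinocyte-marker spots TMM and DESeq2 factors lowered it to 0.30 and 0.23, with intervals that include 0, and the ratio without the 3 richest spots of each section was 0.82 (0.17 to 1.45). Thinned to 1000 UMIs, 2.79% (1.21 to 5.42) of the keratinocyte-marker spots of *S1pr2* f/f and 7.14% (4.05 to 11.5) of those of *S1pr2* f/f K14-Cre held a *Fos* UMI, with intervals that overlap, against 14.6% and 11.7% before thinning. UMIs also lay closer together, with 1.43 per spot that had any in *S1pr2* f/f and 1.96 in *S1pr2* f/f K14-Cre, against 1.24 and 1.48 for receptor genes, so the intervals are narrower than the true error. Of the 44 *Fos* UMIs in collagen-marker spots of *S1pr2* f/f K14-Cre, 35 lay in 1 of the 4 segments. That segment also held 354294 of the 539895 UMIs of these spots. As levels, the 4 segments had 98.8, 84.8, 0 and 73.7 CPM. By distance, *S1pr2* f/f K14-Cre had 31.1, 43.9, 28.4, 93.4 and 160 CPM at 1 to 5 steps. *S1pr2* f/f had 33.1, 37.7, 19.0, 28.0 and 20.2. The values at 5 steps rest on 24 and 6 UMIs. At 8 or more steps the order was reversed, with 54.3 in *S1pr2* f/f K14-Cre (21 UMIs) against 74.7 in *S1pr2* f/f (5 UMIs).

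*Fosb* (chr7:19302696-19310118) had 3 UMIs in the keratinocyte-marker spots of *S1pr2* f/f, or 1.69 CPM, which is the level of a receptor gene. In *S1pr2* f/f K14-Cre it had 24 UMIs, or 34.3 CPM, above the 14 UMIs at the 95th percentile of receptor genes, and the ratio of 20.3 (6.18 to 106) has a count at background below it, so its size cannot be read. Those 24 UMIs came from 10 spots, and 41.7% of them from 3 spots. The other 4 layers described had between 5 and 7 *Fosb* UMIs in *S1pr2* f/f and between 0 and 10 in *S1pr2* f/f K14-Cre, which sets no order among them. *Fosl1* (chr19:5447698-5455938), which encodes Fra-1, had 18 and 14 UMIs in keratinocyte-marker spots. The log2 ratio was 0.98 (-0.14 to 2.07), the 14 UMIs were no more than the same percentile of receptor genes, and 78.6% of them came from 3 spots. Its level was also compared between the more differentiated and the more basal keratinocyte-marker spots of the partial split given above. The log2 ratio was -1.62 (-3.22 to -0.12) in *S1pr2* f/f, from 7 and 11 UMIs, and 1.12 (-0.68 to 3.24) in *S1pr2* f/f K14-Cre, from 10 and 4.

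*Fosl2* (chr5:32136472-32157840), which encodes Fra-2, differed little between the sections in keratinocyte-marker spots. Its level was 97.8 CPM in *S1pr2* f/f (174 UMIs) and 101 in *S1pr2* f/f K14-Cre (71 UMIs), a log2 ratio of 0.05 (-0.37 to 0.46) that became -0.68 with TMM factors. Sebaceous-marker spots had the highest level of both sections, at 147 and 108, but in *S1pr2* f/f K14-Cre this was within the interval of the keratinocyte-marker spots. In adipocyte-marker spots it was 108 (66 UMIs) against 49.2 (16 UMIs), a log2 ratio of -1.14 (-2.03 to -0.34). In collagen-marker spots it was 102 against 68.5, and in muscle-marker spots 59 UMIs stood against 52, a log2 ratio of -0.03 (-0.59 to 0.54). The difference in adipocyte-marker spots ranged from -1.97 to -0.91 over the alternatives.

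*Atf3* (chr1:191170296-191183333), a stress-induced member of the ATF family, had the opposite pattern to *Junb*. Its level in *S1pr2* f/f was 7.30 CPM in keratinocyte-marker spots (13 UMIs), 24.5 in sebaceous-marker, 37.5 in collagen-marker, 37.8 in adipocyte-marker and 35.8 in muscle-marker spots (34 UMIs). In *S1pr2* f/f K14-Cre it was 22.9 (16 UMIs), 6.75 (2 UMIs), 57.4, 83.0 and 88.0 (75 UMIs). The deep layers of both sections were above the keratinocyte-marker spots, and within each section the collagen-marker, adipocyte-marker and muscle-marker spots had counting intervals that overlapped. The log2 ratio of keratinocyte-marker over the other spots was -2.14 (-3.09 to -1.30) in *S1pr2* f/f and -1.52 (-2.37 to -0.77) in *S1pr2* f/f K14-Cre. Of 3388 genes with at least 100 UMIs in muscle-marker spots, 2.42% were at least 2-fold higher in *S1pr2* f/f K14-Cre and 9.89% at least 2-fold lower, and *Atf3* was the 1 of 5 AP-1 genes that was higher, with none lower. *Atf3* reached that depth only through its 75 UMIs in *S1pr2* f/f K14-Cre, beside 34 in *S1pr2* f/f. This count and its place among those genes are therefore no support for a difference. The *Atf3* log2 ratio there was 1.30 (0.69 to 1.93), above that of 99.1% of those genes, and it ranged from 1.01 to 2.10 over the alternatives. In keratinocyte-marker spots the ratio was 1.65 (0.50 to 2.82), or 0.91 (-0.24 to 2.09) with TMM factors. Without the 3 richest spots of each section it was 0.99 (-0.67 to 2.58). The 16 UMIs of *S1pr2* f/f K14-Cre there lay close to the receptor gene percentile used for *Fosb*, and 56.25% of them came from 3 spots. In adipocyte-marker spots the *Atf3* ratio was 1.14 (0.28 to 2.00) and in collagen-marker spots 0.61 (-0.16 to 1.40). Sebaceous-marker spots went the other way at -1.86 (-4.99 to 0.16), from 23 and 2 UMIs. Thinned to 1000 UMIs, 2.50% (0.82 to 5.74) of the muscle-marker spots of *S1pr2* f/f and 6.54% (3.85 to 10.3) of those of *S1pr2* f/f K14-Cre held an *Atf3* UMI, with intervals that overlap, against 10.5% and 14.6% before thinning. The 8 skeletal muscle markers summed to 75811 CPM in these spots in *S1pr2* f/f and 142402 in *S1pr2* f/f K14-Cre, and their part in the *Atf3* ratio was not tested.

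**Figure D4:**
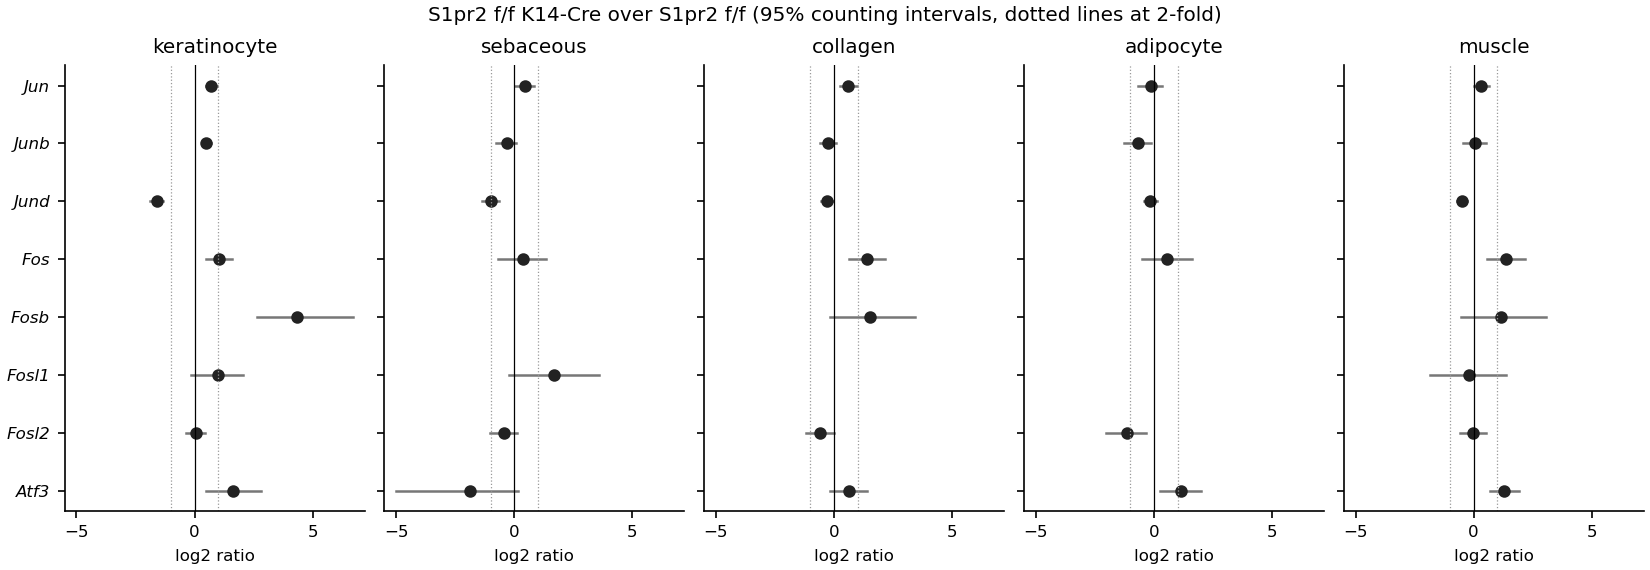
Log2 ratio of *S1pr2* f/f K14-Cre over *S1pr2* f/f for each AP-1 gene in 5 layers, after division by all UMIs, with bars for 95% counting intervals and dotted lines at 2-fold. *Jund* lies at -1.60 in keratinocyte-marker spots and *Atf3* at 1.30 in muscle-marker spots; with TMM factors all keratinocyte-marker values move down by 0.73, which takes *Jun* from 0.71 to -0.02 and *Junb* from 0.50 to -0.23.

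In the other layers no AP-1 gene with at least 100 UMIs differed by 2-fold between the sections after division by all UMIs. This was so for 4 genes in collagen-marker spots, where 5.19% of 2966 genes were higher and 10.6% lower by that measure, and for 4 in sebaceous-marker spots, with 4.12% and 13.9% of 2790 genes. It was so for 3 in adipocyte-marker spots, with 5.94% and 11.5% of 1935 genes. *Jund* in sebaceous-marker spots, at -0.99, was close to 2-fold lower and passed it in 10 of 14 alternatives. These include TMM factors (-1.41) and DESeq2 factors (-1.43), for which the share over all genes was not computed. Over all spots *Atf3* was the 1 of 6 that passed, with a log2 ratio of 1.23 (0.88 to 1.58), against 6.73% of 10439 genes higher and 6.83% lower. It does not stay 2-fold higher with TMM factors (0.86) or DESeq2 factors (0.81). *Jund* over all spots was at -0.70 and became 2-fold lower with TMM factors (-1.07) and DESeq2 factors (-1.12). Within the sections, keratinocyte-marker spots had 1 of 6 AP-1 genes at least 2-fold below the other spots in *S1pr2* f/f (*Atf3*) and none above, where 20.6% of 8414 genes were below and 5.54% above. In *S1pr2* f/f K14-Cre they had 2 of 6 below (*Jund* and *Atf3*) and 1 above (*Junb*), where 20.7% of 5594 genes were below and 13.9% above. In both sections *Atf3* reached 100 UMIs only through the other spots, so its place in these counts is no support. Muscle-marker spots had *Junb* at least 2-fold below the other spots in both sections, where 14.5% of genes of *S1pr2* f/f and 25.4% of genes of *S1pr2* f/f K14-Cre were below, and *Atf3* at least 2-fold above in *S1pr2* f/f K14-Cre but not in *S1pr2* f/f, where 8.92% and 7.48% of genes were above. The *Junb* log2 ratios there were -1.74 and -1.77, and those of *Atf3* 1.13 in *S1pr2* f/f K14-Cre and 0.78 in *S1pr2* f/f. Keratinocyte-marker over muscle-marker spots of *S1pr2* f/f had 1 of 4 AP-1 genes above 2-fold (*Junb*, 4.09-fold) and none below, against 18.6% and 16.7% of 5167 genes. For *S1pr2* f/f K14-Cre 2 of 4 were above (*Junb*, 5.62-fold, and *Jun*, 2.04-fold) and 1 below (*Jund*, at 0.487 of the muscle level), against 30.0% and 23.5% of 2916 genes. These layer ratios were computed with division by all UMIs. With DESeq2 factors *Junb* in keratinocyte-marker spots was also more than 2-fold above the other spots of *S1pr2* f/f (log2 1.29). Against all other spots, the *Jund* log2 ratio of keratinocyte-marker spots was 0.15 (0.03 to 0.26) in *S1pr2* f/f and -1.01 (-1.30 to -0.74) in *S1pr2* f/f K14-Cre.

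**Figure D5:**
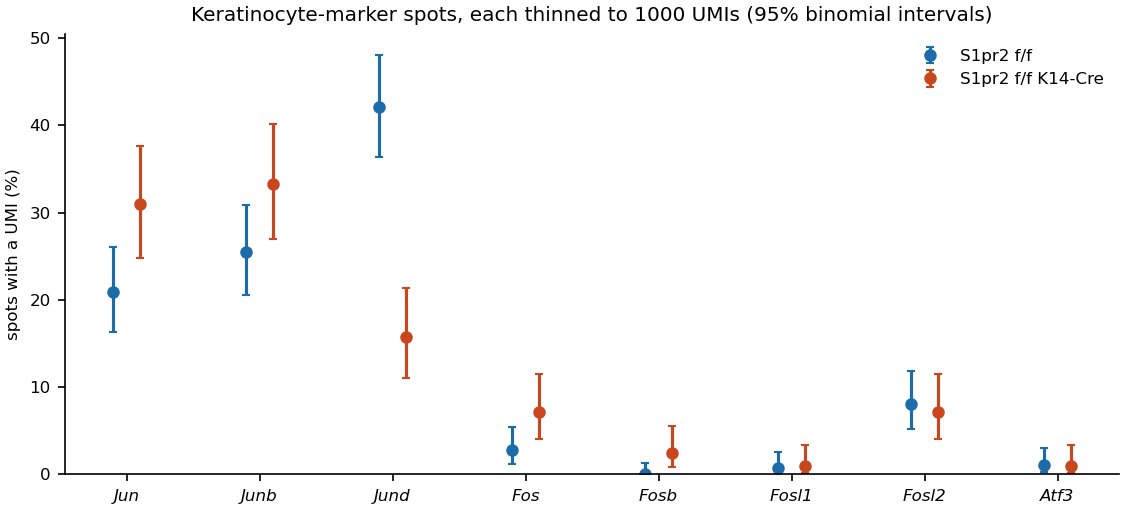
Share of keratinocyte-marker spots, each thinned to 1000 UMIs, that held at least 1 UMI of the gene, in percent, with bars for 95% binomial intervals. *Jund* is at 42.2% in *S1pr2* f/f and 15.7% in *S1pr2* f/f K14-Cre, without overlap of the intervals, whereas *Fosl2* is at 8.01% and 7.14%.

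The pathway around AP-1 was read from gene lists. Of 38 other immediate early genes, 36 were measured and 19 had at least 100 UMIs in keratinocyte-marker spots, of which 2 were at least 2-fold higher and 2 at least 2-fold lower in *S1pr2* f/f K14-Cre, with a median log2 ratio of -0.16, against 9.88% higher and 12.7% lower over all genes. *Klf10*, a TGF-beta-induced zinc finger factor, was at 214 and 694 CPM (3.24-fold, 2.83 to 3.72), and *Dusp6*, a phosphatase of ERK, at 38.2 and 114 (log2 1.58, 1.10 to 2.07), and neither stays 2-fold higher with TMM factors. At its *S1pr2* f/f level in both sections *Dusp6* would not have reached that depth, so its place in this count is no support. *Nfkbiz*, an IL-17-responsive NF-κB regulator, was at 77.0 and 21.4 (log2 -1.85, -2.72 to -1.07), and *Btg1*, an antiproliferative gene, at 241 and 91.4 (-1.40, -1.80 to -1.02). *Nfkbiz* reached that depth only through its *S1pr2* f/f level, so its place in the count of lower genes is no support. *Klf4* had a log2 ratio of -0.16, and *Cebpb* had 0.44 and *Egr1*, like *Fos* a target of serum response factor, 0.06 (-0.23 to 0.34), which both fall below 0 with TMM factors. In muscle-marker spots 17 of the list had that depth, 1 was 2-fold higher (*Socs3*, the feedback inhibitor of cytokine signalling, 1.02, 0.48 to 1.58) and 5 were 2-fold lower, including *Klf4* (-1.61, -2.14 to -1.11), against 2.42% higher and 9.89% lower over all genes tested there.

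Of 16 other basic leucine zipper genes, 15 were measured and 5 had that depth in keratinocyte-marker spots. None of the 5 was 2-fold different, against 9.88% higher and 12.7% lower over all genes. Their median was 0.21, which falls below 0 with TMM factors. *Atf4*, of the integrated stress response, had 0.56 and *Nfe2l2*, of the oxidative stress response, 0.60, and both fall below 0 with TMM factors. Of 23 kinases and ternary complex factors upstream of AP-1, 21 were measured and 13 had that depth, with 0 higher and 2 lower and a median of -0.19. The share of lower genes was near the 12.7% over all genes, of which 9.88% were higher. Those lower were *Map2k4*, which phosphorylates JNK, at 109 and 22.9 CPM (log2 -2.25, -3.09 to -1.52), and *Mapk3*, the gene of ERK1, at 183 and 84.3 (-1.12, -1.55 to -0.72). *Map2k4* reached that depth only through its *S1pr2* f/f level, so its place in this count is no support.

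The list of textbook AP-1 target genes held 23 genes, all measured, of which 12 had that depth in keratinocyte-marker spots, 1 was 2-fold higher and 3 were 2-fold lower, against 9.88% and 12.7% over all genes. The lower ones were *Ivl*, a protein of the cornified envelope (379 and 131 CPM, log2 -1.53, -1.86 to -1.21), and the wound and psoriasis keratins *Krt16* (15316 and 5393, -1.51) and *Krt6a* (6027 and 2764, -1.12). The higher one was *Mmp3*, a matrix metalloproteinase (152 and 373, log2 1.30, 1.05 to 1.55), which does not stay 2-fold higher with TMM factors. The median of the 12 was 0.28, which falls below 0 with TMM factors, while their summed level was 28043 in *S1pr2* f/f and 13360 in *S1pr2* f/f K14-Cre over all 23, since the keratins hold most of it. Of 12 heat shock and tissue stress genes, 11 were measured and 8 had that depth, with 0 higher, 2 lower and a median of -0.14, against 9.88% higher and 12.7% lower over all genes. Those lower were the inducible chaperone genes *Hspa1b* (405 and 117, log2 -1.79, -2.14 to -1.46) and *Hspa1a* (50.0 and 24.3, -1.04, -1.88 to -0.28). *Hspa1a* reached that depth only through its *S1pr2* f/f level, so its place in this count is no support.

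*Jun*, *Junb* and *Jund* had at least 300 UMIs in each section, which allowed a comparison of pattern with 1711 genes of that depth. Levels were taken in 25 blocks of neighbouring spots in *S1pr2* f/f and 22 in *S1pr2* f/f K14-Cre, and likeness was the lower of the Pearson correlations of the sections, given as a description because blocks share a library and differ in depth. *Junb* was most like *Cltb* (0.80), *Atp2a2* (0.78), *Tmem50b* (0.77), *Trex2* (0.77) and *Hnrnpl* (0.75). *Jun* was most like *Egr1* (0.56), followed by *Fam110a* (0.54), *Eif4b* (0.49), *Anxa7* (0.47) and *Pcyox1* (0.45). *Jund* was most like *Nudcd3* (0.58), *Cast* (0.51), *H1f0* (0.51), *Ifrd1* (0.49) and *Tmed2* (0.46). The likeness values of *Jun* and *Jund* were below those of *Junb*, and none of these 3 genes was among the 5 closest of another. Across the same blocks the correlation of *Junb* with *Jund* was -0.04 in *S1pr2* f/f and -0.60 in *S1pr2* f/f K14-Cre.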

How the data were processed

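The authors sequenced probe-based libraries of 2 skin sections and deposited raw UMI counts per spot and gene from Space Ranger (3.0.0 per the file headers, mm10 per the submitters' processing notes). Values over all spots used every spot over tissue. A spot with at least 500 UMIs took the layer of its highest marker score (mean level relative to the section mean, capped at 10) if that was at least 1, and a layer under 20 spots in either section was left out. UMIs were summed per region and scaled to 1000000 (CPM). With 1 library per group there was no test. Intervals (95%) were exact Poisson for levels, conditional binomial for ratios, Clopper-Pearson for shares and normal on the log scale for differences of ratios, and cover counting error only. A ratio needed 10 UMIs over both regions and a background gene 100. Likeness used log2(CPM + 10) in blocks of 8 array rows by 16 columns with at least 10 spots and 20000 UMIs. The libraries shared 357 spot barcodes, which name array places. No doublet caller was run. The members, lists and comparisons were chosen with earlier results of these data known. Named genes were the 8 members, per list the 3 with the most UMIs and the 2 highest and 2 lowest ratios in a region, and the 5 of greatest likeness, of which some are not reported here. *Zfp36l1*, *Rhob*, *Mafg*, *Rps6ka1*, *Rps6ka3*, *Hspa8* and *Hba-a1* of the lists had no row under these symbols. The ratio script was checked on simulated data. Alternatives were TMM (edgeR 4.0.16) and DESeq2 (1.42.0) factors, thinning to 1000 UMIs, other spot minimums and layer rules, Leiden clusters (scanpy 1.11.5), receptor background taken off, mean spot levels and the sum without its most counted member, with Python 3.11.15, numpy 2.4.6, pandas 2.3.3, scipy 1.17.1, matplotlib 3.10.9 and R 4.3.3.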

Additional observations from a re-analysis of the deposited data

Results flagged for a closer look

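In *S1pr2* f/f the log2 ratio of *Jund* in keratinocyte-marker spots over the other spots was 0.15, and in *S1pr2* f/f K14-Cre it was -1.01. The sections lay on opposite sides of 0, and the difference was not tested because there was 1 library per genotype. For *Fosb* the same ratio was -1.99 in *S1pr2* f/f, which rests on 3 UMIs in keratinocyte-marker spots, and 1.56 in *S1pr2* f/f K14-Cre, which rests on 24. That difference was not tested either.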

How the results depend on the processing

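No paired analysis was possible because there was 1 library per genotype, and for the same reason no replicate could be left out. Of 869 alternative values for 60 ratios of single genes, 750 moved by less than their counting interval, 119 moved by more and none of the ratios past 2-fold changed sign. The 750 include values that equal the main one by construction. These are the ratios without the filter on low counts and the all-spots ratios without a spot minimum. The log2 ratio of the summed AP-1 UMIs, *S1pr2* f/f K14-Cre over *S1pr2* f/f, was 0.05 in keratinocyte-marker spots and became -0.69 with TMM factors, -0.75 with DESeq2 factors, 0.62 without *Jund* and -0.26 with Leiden clusters at resolution 0.5. In collagen-marker spots it was 0.02 and became -0.16 with DESeq2 factors, 0.22 without *Jund*, -0.28 with Leiden clusters at resolution 0.5 and 0.24 where the leading score was at least 2 times the next. In muscle-marker spots it was -0.02 and became 0.16 with TMM factors, 0.13 with DESeq2 factors, 0.44 without *Jund* and -0.21 among spots with 2000 to 5000 UMIs. Over all spots it was -0.12 and became -0.49 with TMM factors, -0.54 with DESeq2 factors, -0.038 as the mean of spot levels and 0.22 without *Jund*. For keratinocyte-marker over the other spots of *S1pr2* f/f it was 0.32 and became 0.74 with TMM factors, 0.77 with DESeq2 factors, 0.45 without *Jund*, 0.43 and 0.42 with Leiden clusters at resolution 1 and 0.5, 0.44 with the leading score rule, 0.22 with basal markers alone and 0.52 among spots with 2000 to 5000 UMIs. For *S1pr2* f/f K14-Cre it was 0.51 and became 0.28 with TMM factors, 0.27 with DESeq2 factors, 1.00 without its most counted member, 0.33 with Leiden clusters at resolution 0.5 and 0.72 among spots with 2000 to 5000 UMIs. The cause was not tested, except that leaving out a member changes the sum itself. Leiden clusters at resolution 0.5 held no adipocyte cluster in *S1pr2* f/f K14-Cre and gave no value there. Spots with 2000 to 5000 UMIs and the values without the 3 richest spots were chosen after seeing the data.

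Depth limits *Fosb*, *Fosl1*, *Fos* and *Atf3*, which had between 3 and 66 UMIs in keratinocyte-marker spots. UMIs of a gene clump in spots, so that intervals are too narrow. The sections differed in depth, background and markers, and 1 mouse per genotype gives no spread between animals.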
